A study of Homo sapiens with 26 samples.

Results

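The 9 genes described here make serine, move its one-carbon unit onto folate and spend that unit on thymidylate. They were chosen by symbol: PHGDH, PSAT1, PSPH, SHMT1, SHMT2, MTHFD1, MTHFD1L, MTHFD2 and TYMS, each present as 1 coding transcript among the 19478 rows of every count table. The study compared ribosome footprint libraries in which ribosomal RNA had been removed by different commercial kits, or left in place, to see how far each kit changed the counts of coding footprints. Its data are 8 libraries of HEK293T cells, 16 of K562 cells and 2 of HEK293FT cells.

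In the serine pathway PHGDH oxidises the glycolytic intermediate 3-phosphoglycerate, PSAT1 transaminates the product and PSPH releases serine by removing the phosphate. Serine hydroxymethyltransferase then splits serine into glycine and a one-carbon unit bound to tetrahydrofolate, in the cytosol through SHMT1 and in mitochondria through SHMT2. MTHFD2 and MTHFD1L oxidise that unit in mitochondria and release it as formate, MTHFD1 charges formate back onto folate in the cytosol, and TYMS uses the resulting methylene group to turn dUMP into dTMP for DNA synthesis. Proliferating cell lines differ in how much serine they make themselves and how much they take up from the medium, and PHGDH is well known to vary between tumour lines.

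HEK293T and HEK293FT are derivatives of a human embryonic kidney line that carry the SV40 large T antigen, whereas K562 cells, of erythroid character, came from chronic myeloid leukaemia in blast crisis. HEK cells were grown attached in DMEM and K562 cells in suspension in RPMI, both with fetal bovine serum. All cells were lysed with cycloheximide, which holds ribosomes on the mRNA, and RNase I trimmed the mRNA to the stretch each ribosome covers. The HEK293T libraries (footprints of 15 to 35 nt) were undepleted or treated with Ribo-Zero Gold, RiboCop or NEBNext, with 2 libraries of each. A K562 size experiment had 1 library for each combination of NEBNext or no depletion with a 20 to 34 nt or a 20 to 60 nt size range; its 2 libraries titled undepleted also carry a label naming NEBNext, and were grouped by title. A K562 kit experiment (20 to 34 nt) had 2 libraries for each of 4 treatments (none, FastSelect, riboPools, and riboPools with a cold elution), and 1 each of Ribo-Zero Plus alone, with formaldehyde, with oligos, and with both. HEK293FT (15 to 35 nt) had 1 undepleted library and 1 treated with custom oligos. NEBNext and Ribo-Zero Plus are nuclease kits, in which RNase H cuts RNA paired with DNA probes; the probes of Ribo-Zero Gold, RiboCop and riboPools capture rRNA so that it can be removed, and FastSelect blocks its copying into cDNA.

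Coding counts per library ran from 120019 to 421521 in HEK293T, from 46858 to 441249 in the K562 size experiment, from 116742 to 5795774 in the K562 kit experiment, and were 900763 and 5747772 in HEK293FT. The 3 Ribo-Zero Plus libraries with additives stood apart, with 116742, 165153 and 184722 counts. Defining genes matched the labelled lines in undepleted libraries: 10 erythroleukaemia genes summed to between 12306 and 12694 CPM (counts scaled to a library total of 1000000) in K562, all 10 detected, against 189 to 333 in HEK293T and 231 in HEK293FT, where 2 of 10 had a count and the globin genes were at 0. Of 8 genes typical of HEK lines, 7 were detected in HEK293T (517 to 691 CPM), 6 in HEK293FT (298 CPM) and 2 in K562 (at most 1.76 CPM). In HEK293T most of that sum came from NEFM and NEFL, with means of 344 and 167 CPM. There PAX2 and LHX1 had 1 count each over both libraries, and EYA1 had 0. The cell line, its medium, the size range and the experiment changed together between lines and cannot be told apart. Footprints in bulk culture likewise do not separate a lower mRNA level from less translation of each mRNA, nor fewer expressing cells from less RNA in each cell.

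The counted transcripts had coding lengths of 675 nt (PSPH) to 2934 nt (MTHFD1L) and coding GC contents of 46.8% to 58.8%. Part of the TYMS coding sequence lies opposite other genes, 383 bases of it opposite ENOSF1 and 106 opposite TYMSOS, and MTHFD1 shares 178 coding bases with ZBTB25 on the other strand. Short footprints from named pseudogenes could also be counted with a parent gene or lost from it: the annotation names 7 for MTHFD2, 4 for PSAT1, 2 for TYMS and 1 each for PSPH, SHMT1 and MTHFD1. Counts of these genes are uncertain to that extent. No strand setting is given in the sources used here.

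PHGDH and TYMS moved most in opposite directions between lines, and PSAT1 works next to PHGDH. MTHFD1L held a sequence that the other 6 genes searched lacked. The sequences before the start sites of these 4 genes are given below, and their part in differences between lines was not tested. Each is the 250 bases before a RefSeq start site (GRCh38.p14), in lower case with 3 kinds of match in capitals. These are TGATGNAA, a core bound by ATF4 dimers, TTTCCCGC, TTTGGCGC or TTTCGCGC, of the E2F type, and CCAAT, bound by NF-Y, searched on both strands of windows reaching 50 bases past the start.
PHGDH, chr1:119711684-119711933, plus strand: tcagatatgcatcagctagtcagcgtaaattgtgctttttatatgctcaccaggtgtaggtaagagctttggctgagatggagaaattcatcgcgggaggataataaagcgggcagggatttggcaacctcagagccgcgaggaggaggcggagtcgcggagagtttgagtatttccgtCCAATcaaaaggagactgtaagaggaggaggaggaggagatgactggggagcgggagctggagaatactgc
PSAT1, chr9:78296875-78297124, plus strand: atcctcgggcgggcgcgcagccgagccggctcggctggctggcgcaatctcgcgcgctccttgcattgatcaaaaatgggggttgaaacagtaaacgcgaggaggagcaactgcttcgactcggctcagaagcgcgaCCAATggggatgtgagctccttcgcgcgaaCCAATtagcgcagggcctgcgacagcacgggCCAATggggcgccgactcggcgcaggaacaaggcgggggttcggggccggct
TYMS, chr18:657403-657652, plus strand: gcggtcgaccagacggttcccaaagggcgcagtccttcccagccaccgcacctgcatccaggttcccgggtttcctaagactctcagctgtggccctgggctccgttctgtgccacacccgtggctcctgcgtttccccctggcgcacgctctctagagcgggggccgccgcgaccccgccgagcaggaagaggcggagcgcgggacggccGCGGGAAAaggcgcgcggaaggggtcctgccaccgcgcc
MTHFD1L, chr6:150866236-150866485, plus strand: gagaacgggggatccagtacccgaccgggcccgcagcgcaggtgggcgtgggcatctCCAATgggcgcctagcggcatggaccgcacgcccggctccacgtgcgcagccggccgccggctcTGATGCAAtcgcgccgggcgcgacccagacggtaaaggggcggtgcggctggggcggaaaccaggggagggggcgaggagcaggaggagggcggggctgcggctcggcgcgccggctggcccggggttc
RefSeq windows were matched for 7 of the 9 genes, all but PSPH and SHMT2. The ATF4-type letters were present in 3 of the 4 MTHFD1L windows and in no window of the other 6 genes. Those 3 windows overlap and hold the same site, so this is a single match. Of all 35116 promoter windows, 3.62% held such letters. An E2F-type match stood in TYMS alone of the 7, 39 bases before the start on the minus strand, against 2.74% of all windows. CCAAT was in 34.6% of all windows and in those of PHGDH, PSAT1, SHMT1, MTHFD1 and MTHFD2, but not in that of TYMS. It was also in 3 of the 4 windows of MTHFD1L, again as the same site. PSAT1 had 3 copies. A match is a match of letters and not a binding site, and no binding was measured here. The counted PHGDH transcript starts at position 119648411, outside the window shown. The counted MTHFD1L transcript starts at 150865549, so the MTHFD1L window shown, with its ATF4-type letters, lies past that start and not before it.

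Between K562 and HEK293T the largest differences were in PHGDH and TYMS, at the start and end of the pathway. In undepleted libraries, K562 had less PHGDH and MTHFD1 than HEK293T and more PSAT1, MTHFD2 and TYMS, so 5 of the 9 genes passed an adjusted p of 0.05 in edgeR's quasi-likelihood test, 3 higher and 2 lower in K562. Over all 9644 genes tested, 35.4% passed, 18.5% (1781 genes) higher and 16.9% (1629) lower; scaled by total counts the split was 1219 to 2134, with the same 3 higher and 2 lower members. The median log2 fold change was 0.17 over the 9 genes and 0.02 over all genes. HEK293FT against HEK293T gave a smaller background, with 4.05% of genes called, 2.75% higher and 1.31% lower (265 to 126 genes, or 179 to 240 scaled by total counts). Of the 9, 3 were higher in HEK293FT, PHGDH, PSAT1 and SHMT2, and none was lower. K562 against HEK293FT called 52.1% of all genes (26% higher, 26.2% lower) and 5 of the 9, with TYMS and MTHFD2 higher and PHGDH, SHMT2 and MTHFD1 lower. These 3 comparisons share libraries, and the single HEK293FT library was assumed to vary like the others.

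**Figure D1:**
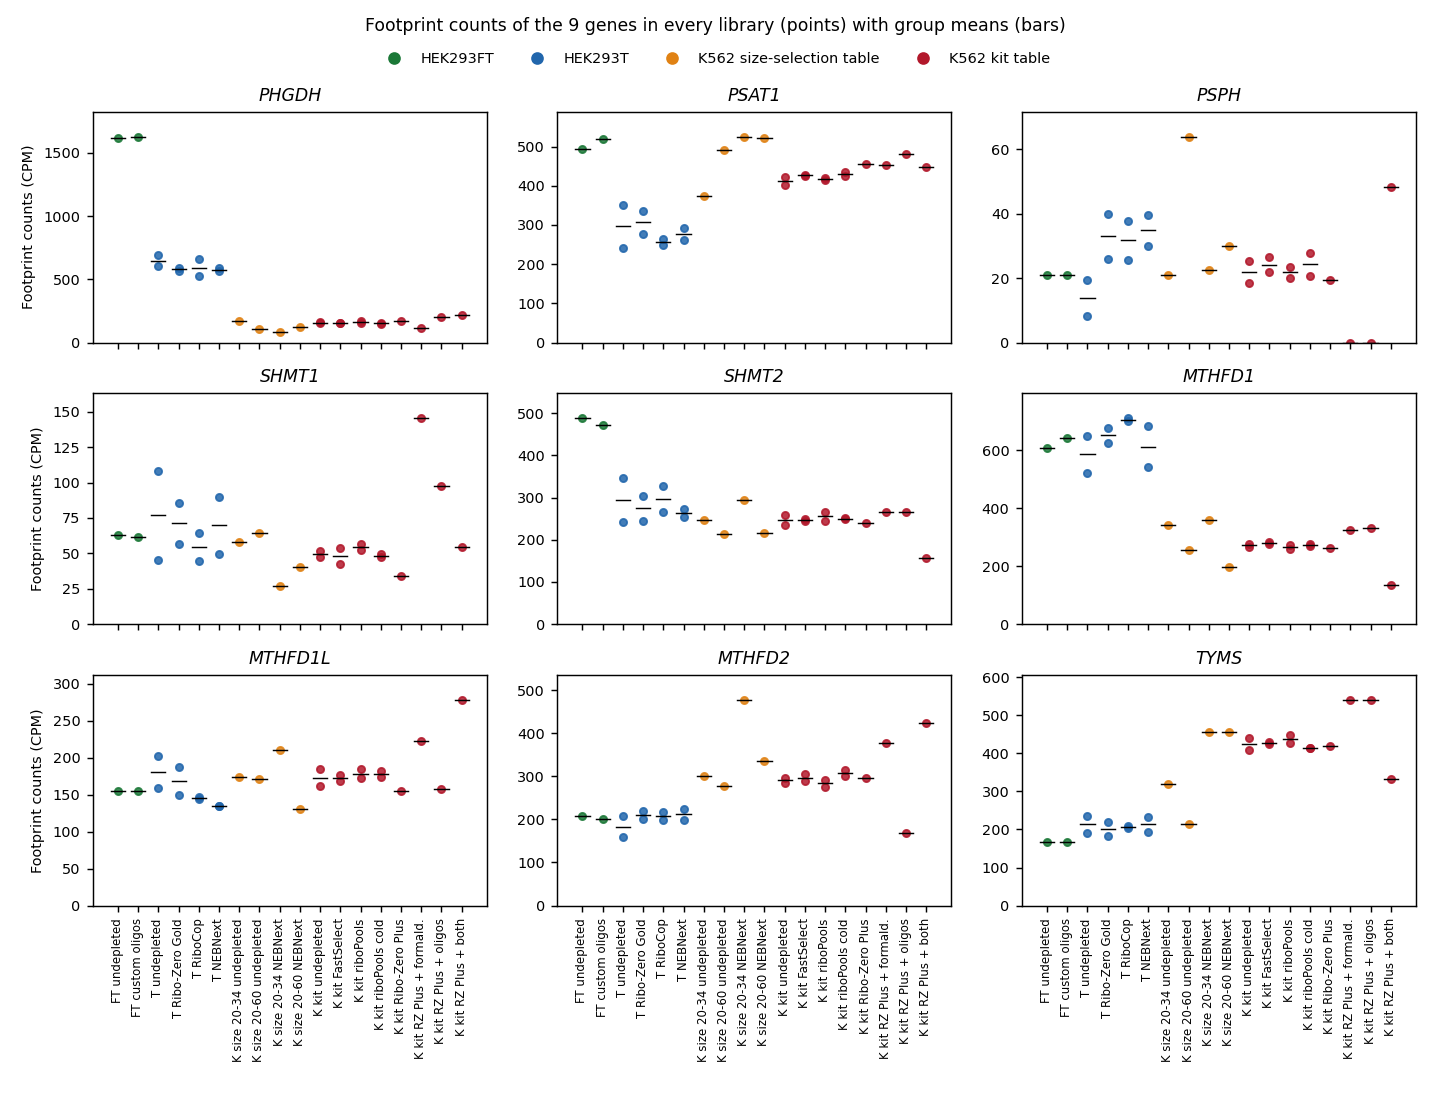
Footprint counts in CPM (vertical axis, linear from 0, its own scale in each panel) of the 9 genes in every library (points), with group means (bars); T is HEK293T, FT HEK293FT and K K562. PHGDH falls in steps from HEK293FT (1621 CPM undepleted) to HEK293T (523 to 692) to K562 (81.6 to 218). In most panels the K562 size experiment and the 3 shallow Ribo-Zero Plus libraries at the right scatter more than the other K562 libraries.

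PHGDH, which commits carbon from glycolysis to serine, separated all 3 lines. It was at 692 and 606 CPM in the undepleted HEK293T libraries, 152 and 160 in K562 and 1621 in HEK293FT. No value of one line overlapped another's, in these or in any depleted library: the 8 HEK293T libraries lay between 523 and 692 CPM, the 16 K562 libraries between 81.6 and 218, and the HEK293FT libraries at 1621 and 1630. The log2 fold change was -1.79 ± 0.15 (SE, adjusted p = 9.59e-30) for K562 against HEK293T, -3.26 ± 0.08 for K562 against HEK293FT, and 1.47 ± 0.11 (adjusted p = 1.4e-39) for HEK293FT against HEK293T.

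PSAT1, which acts on the PHGDH product, did not follow it. PSAT1 was at 242 and 352 CPM in HEK293T, 402 and 423 in K562 and 493 in HEK293FT. K562 and HEK293FT lay above both HEK293T libraries, whose own values were far apart. Against HEK293T the log2 fold change was 0.69 ± 0.16 in K562 (adjusted p = 0.000118) and 0.84 ± 0.17 in HEK293FT (adjusted p = 4.85e-05). The K562 call rested on HEK293T replicate 1, without which it was 0.47 (adjusted p = 0.0629). K562 against HEK293FT gave -0.15 (95% interval -0.32 to 0.03), which missed the threshold.

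PSPH, the last enzyme of serine synthesis, had the lowest counts of the 9. It had 1 and 3 counts in the HEK293T libraries, 21 and 26 in K562 and 19 in HEK293FT, or 8.33 and 19.5, 18.5 and 25.2, and 21.1 CPM. The HEK293T and K562 ranges overlapped, and the K562 difference of 0.81 ± 0.72 (95% interval -0.59 to 2.22) could not be told from 0 at this depth. Summed over the 3 serine enzymes, footprints came to 2135 to 2171 CPM in HEK293FT, 826 to 977 in HEK293T and 562.4 to 714 in K562, with no overlap over all libraries.

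Of the serine hydroxymethyltransferases, mitochondrial SHMT2 took most footprints in every library. SHMT2 was at 242 and 345 CPM in undepleted HEK293T, 235 and 260 in K562 and 488 in HEK293FT. Only the HEK293FT value stood apart, with a log2 fold change of 0.85 ± 0.17 (adjusted p = 4.9e-05) against HEK293T; that of K562 was -0.03 (95% interval -0.37 to 0.32). Cytosolic SHMT1 was at 108 and 45.6 CPM in HEK293T, 47.6 and 51.4 in K562 and 63.3 in HEK293FT. Its HEK293T libraries, with 13 and 7 counts, spanned the other lines, and the K562 difference was -0.31 (95% interval -1.03 to 0.40). As a share of the 2 enzymes' counts, SHMT2 made up 69.0% to 88.3% in the HEK293T libraries (median 82.4%), 64.6% to 91.5% in K562 (median 83.3%) and 88.4% to 88.5% in HEK293FT. The K562 range overlapped those of both HEK lines, and the HEK293T range ended just below that of HEK293FT.

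MTHFD1, the cytosolic enzyme with 3 activities that takes up formate, and MTHFD2, the mitochondrial dehydrogenase and cyclohydrolase, moved in opposite directions. MTHFD1 was at 650 and 521 CPM in HEK293T, 276 and 267 in K562 and 606 in HEK293FT. Both K562 values were lower than every HEK value, with log2 fold changes of -0.84 ± 0.14 (adjusted p = 5.76e-08) against HEK293T and -1.05 ± 0.09 against HEK293FT. MTHFD2 was at 158 and 209 CPM in HEK293T, 285 and 296 in K562 and 208 in HEK293FT. K562 was highest, by 0.89 ± 0.20 (adjusted p = 5.57e-05) and 0.59 ± 0.12 on the log2 scale. MTHFD1L, which releases mitochondrial formate, was at 158 and 202 CPM in HEK293T, 162 and 184 in K562 and 154 in HEK293FT. HEK293T and K562 overlapped, with a difference of 0.17 (95% interval -0.26 to 0.60); the HEK293FT value lay below both, but neither difference from it passed the test.

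TYMS, which makes dTMP and is the target of fluorouracil, was higher in K562. It was at 192 and 235 CPM in HEK293T, 441 and 408 in K562 and 168 in HEK293FT. The K562 libraries did not overlap those of either HEK line, and the log2 fold changes were 1.23 ± 0.18 (adjusted p = 5.59e-11) and 1.45 ± 0.12. In the K562 size experiment the undepleted TYMS values were lower, 321 and 213 CPM, the second from 10 counts and inside the HEK293T range. With those 2 libraries added to K562, the 5 genes that differed from HEK293T still numbered 5.

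The same line comparison was made in NEBNext libraries, none of which entered the undepleted one. PHGDH was at 563 and 587 CPM in HEK293T and 81.6 and 125 in K562, PSAT1 at 263 and 293 against 526 and 521, and TYMS at 233 and 194 against 456 and 456. MTHFD1 was at 683 and 542 against 360 and 195 CPM, and MTHFD2 at 225 and 199 against 478 and 335. None of these 5 overlapped between lines, though the share of all genes without overlap was not counted. All 5 passed the test, with log2 fold changes of -2.43 ± 0.23, 1.04 ± 0.18, 1.25 ± 0.20, -0.89 ± 0.24 and 1.13 ± 0.23 in that order. Of all 4236 genes tested 43.6% passed, 22% higher and 21.6% lower (932 to 916 genes, or 777 to 1226 scaled by total counts). PSPH and SHMT1 were too low to be tested, and SHMT2 (0.13) and MTHFD1L (0.55) missed the threshold; without the 20 to 60 nt library MTHFD1L was called (0.86, adjusted p = 0.0484). The 2 K562 libraries differ in size range. Without the 20 to 34 nt one, 0 of 5123 genes passed the adjusted threshold (1664 at an unadjusted p under 0.05), and the 5 genes kept their sign with values from -2.04 to 1.27. MTHFD1 also lost its call without the 20 to 60 nt library (-0.52, adjusted p = 0.0874) and in DESeq2 (-0.88, adjusted p = 0.0949).

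**Figure D2:**
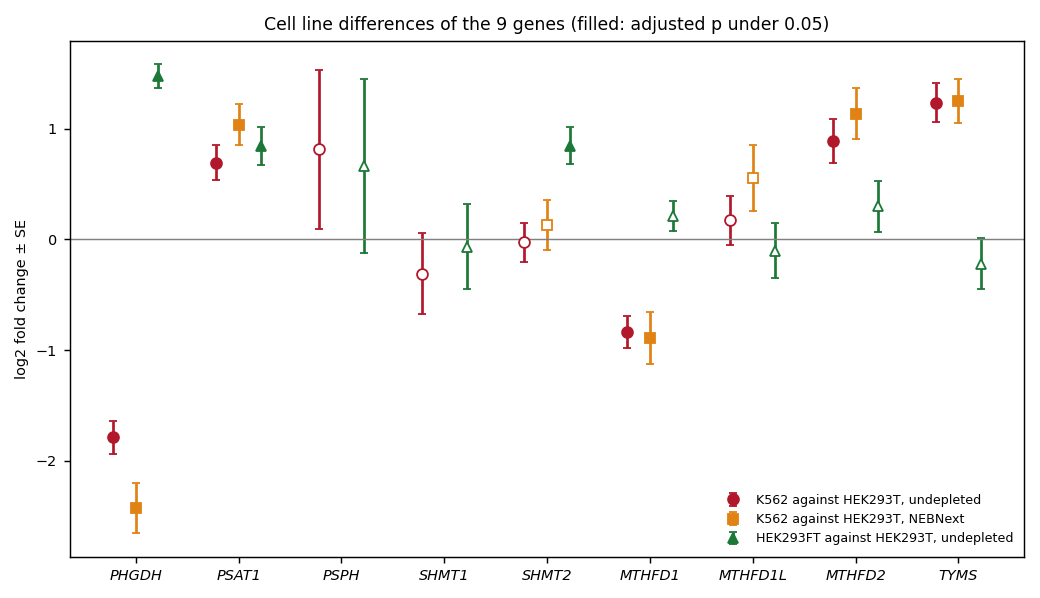
Log2 fold change with its standard error (vertical axis) for each gene in 3 line comparisons; filled symbols passed an adjusted p of 0.05. PHGDH is low in K562 (-1.79 undepleted, -2.43 with NEBNext) and high in HEK293FT (1.47), while TYMS is high in K562 in both kinds of library (1.23 and 1.25).

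Ratios between 2 genes of the same library do not depend on its total. PHGDH had 1.72 to 2.86 counts per PSAT1 count in the 8 HEK293T libraries (median 2.03) and 3.13 to 3.29 in HEK293FT, but 0.155 to 0.486 in the 16 K562 libraries (median 0.372). The lines did not overlap, whatever the kit. Per coding length, MTHFD2 ran at 0.651 to 1.07 of MTHFD1 in HEK293T, 0.832 to 0.915 in HEK293FT and 1.36 to 8.50 in K562. The lowest and the highest K562 ratio both came from shallow Ribo-Zero Plus libraries, with oligos (184722 counts) and with both additives (165153 counts). MTHFD1L to MTHFD1 was 0.189 to 0.370 in HEK293T and 0.455 to 1.999 in K562, and TYMS to MTHFD1 was 0.861 to 1.34 and 2.49 to 7.47.

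**Figure D3:**
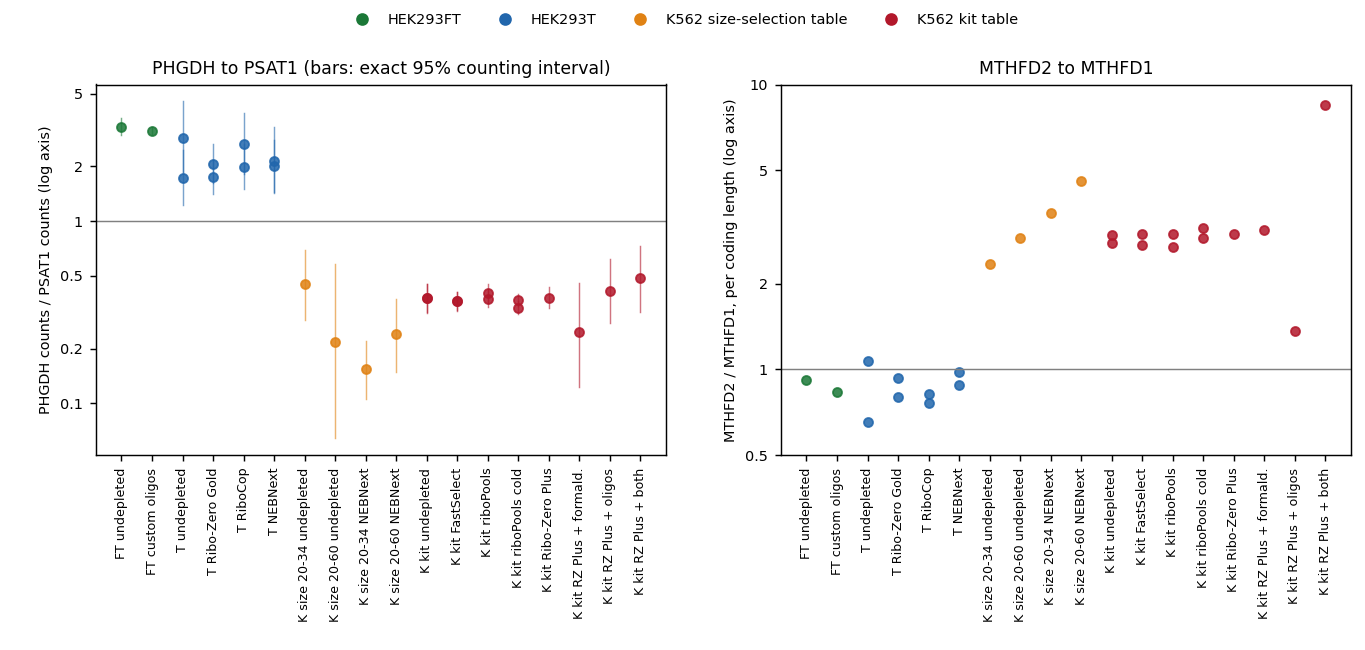
PHGDH counts over PSAT1 counts (left, log axis, bars are exact 95% intervals for counting error) and MTHFD2 over MTHFD1 per coding length (right, log axis) in every library. K562 libraries lie at or under 0.486 on the left and at or over 1.36 on the right, apart from both HEK lines.

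CPM per kilobase of coding sequence orders the genes within a line. In undepleted HEK293T, PHGDH stood first at 406 ± 38 (SD, n = 2), followed by PSAT1 (267 ± 70), TYMS (227 ± 32), MTHFD1 (209 ± 32), SHMT2 (194 ± 49) and MTHFD2 (175 ± 34). From PSAT1 to MTHFD2 each neighbour overlapped the next. MTHFD1L (61.4), SHMT1 (53.1) and PSPH (20.7) followed, with MTHFD1L and SHMT1 overlapping. In K562, TYMS came first at 452 ± 25, then PSAT1 (371 ± 13), MTHFD2 (277 ± 6.9), SHMT2 (164 ± 11), PHGDH (97.6 ± 3.3), MTHFD1 (96.6 ± 2.3), MTHFD1L (59.0), SHMT1 (34.1) and PSPH (32.4). Only PHGDH with MTHFD1 and SHMT1 with PSPH overlapped in K562. HEK293FT, with 1 library, had PHGDH first at 1014, then PSAT1 (444) and SHMT2 (323), with SHMT1 (43.7) and PSPH (31.2) last.

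In HEK293T no kit moved any of the 8 genes tested past the threshold. NEBNext against no depletion called 0 of 8 genes (3.24% of 4410 called, 143 genes, which fell to 56 without NEBNext replicate 2 and to 80 and 82 without undepleted replicate 1 and 2), Ribo-Zero Gold 0 of 8 (0.068%) and RiboCop 0 of 8 (0% called), each also with 0 of 8 at an unadjusted p under 0.05. Over all 4410 genes, 638, 250 and 195 had an unadjusted p under 0.05 with NEBNext, Ribo-Zero Gold and RiboCop. PSPH was too low to be tested, with 8.33 and 19.5 CPM in the undepleted libraries (1 and 3 counts). All its depleted values were higher, from 25.6 CPM (4 counts, RiboCop) to 39.8 CPM (14 counts, Ribo-Zero Gold). The log2 fold changes ran from -0.42 (MTHFD1L) to 0.18 (MTHFD2) with NEBNext, from -0.15 to 0.17 with Ribo-Zero Gold, and from -0.51 (SHMT1) to 0.28 (MTHFD1) with RiboCop. For PHGDH the 95% interval of the NEBNext effect was -0.46 to 0.17, and for SHMT1, with 7 to 13 counts a library, -1.04 to 0.77. Over all 8 libraries the highest PHGDH value was 1.32 times the lowest; for TYMS it was 1.29 times, and for PSPH, with 1 to 14 counts, 4.78 times.

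In K562, NEBNext also called 0 of 8 genes (2.72% of 3715 called). At an unadjusted p under 0.05 there were 3 of the 8, and 523 of the 3715. TYMS was at 456 CPM in both NEBNext libraries against 321 and 213 without depletion, a log2 difference of 0.69 ± 0.23 (adjusted p = 0.0691). MTHFD2 was at 478 and 335 against 300 and 277 CPM (0.63 ± 0.23, adjusted p = 0.12), and PSAT1 at 526 and 521 against 373 and 491 (0.42 ± 0.21, adjusted p = 0.326). SHMT1 went the other way, at 27.2 and 40.1 against 57.8 and 64.0 CPM, the last from 3 counts. Over the 8 genes the log2 fold changes ran from -0.89 to 0.69, with 6 above 0. SHMT1 and the 3 higher genes did not overlap between treatments, though the share of all genes without overlap was not counted. Each rests on 2 libraries of different size ranges a side, and TYMS on 10 counts in one of them. The difference between the NEBNext effects in K562 and HEK293T called 0 of 8 genes (0.764% of all called), with TYMS at 0.78 ± 0.34 (adjusted p = 0.426) and PSAT1 at 0.61 ± 0.30 (adjusted p = 0.494). DESeq2 called 0 of the members with an adjusted p in either comparison. It gave no adjusted p to PHGDH, SHMT1, SHMT2, MTHFD1 and MTHFD1L for NEBNext in K562. For the difference of effects it gave none to SHMT1, MTHFD1L and MTHFD2.

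FastSelect, riboPools and cold riboPools values lay close to the undepleted ones. They called 0 of 9 genes each, with 0.0197%, 0.0887% and 0.237% of all 10142 genes called, and 0 of 9 at an unadjusted p under 0.05. Of all 10142 genes, 559, 586 and 634 had such an unadjusted p, in the same order. Over these 6 libraries and the 2 undepleted ones, PHGDH ran from 146 to 167 CPM, PSAT1 from 402 to 436, MTHFD1 from 260 to 282 and TYMS from 408 to 448, so the highest was 1.08 to 1.14 times the lowest. PSPH varied more, from 18.5 to 28.0 CPM. All log2 fold changes lay between -0.04 and 0.17.

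Ribo-Zero Plus alone called 20.4% of all genes but 0 of the 9. The nearest were PSAT1, at 456 CPM against 402 and 423 (0.17 ± 0.07, adjusted p = 0.0773), and SHMT1, at 34.2 against 47.6 and 51.4 (-0.51 ± 0.23, adjusted p = 0.1). The other 7 ran from -0.14 to 0.17. This is 1 library, assumed to vary like the replicated groups, and the whole-table count was 33 in DESeq2.

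The Ribo-Zero Plus treatments with additives had 1 shallow library each, with no spread of its own, so their p-values borrow the spread of deeper groups. They called between 25.7% and 30.1% of all genes, and in them the median over all genes was itself -1.25 with formaldehyde, -0.64 with oligos and -0.81 with both. Higher against lower genes numbered 741 to 1863, 963 to 2015 and 949 to 2103, and 992 to 1264, 1166 to 1570 and 1162 to 1643 scaled by total counts. With formaldehyde (25.7% called, 7.31% higher) 1 of the 9 passed: SHMT1 had 17 counts, 146 CPM against 47.6 and 51.4 (1.33 ± 0.43, adjusted p = 0.0138). With oligos (29.4% called, 19.9% lower) 2 of the 9 passed, both lower, and neither passed in DESeq2 (adjusted p = 0.137 for PSPH and 0.084 for MTHFD2). MTHFD2 was at 168 CPM against 285 and 296 (-0.94 ± 0.24, adjusted p = 0.00175), which is -0.30 relative to the median of all genes. PSPH had 0 counts, where 4.04 would stand at the undepleted level, so it was at least 1.35-fold lower taking 3 counts as the limit that a count of 0 allows. That limit is a smaller fall than the median log2 fold change of all genes, -0.64 (-0.49 scaled by total counts). PSPH also had 0 counts with formaldehyde, where 2.55 would stand and the limit of 25.7 CPM lies above the undepleted mean of 21.8.

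With both additives (30.1% called, 20.7% lower) 3 of the 9 passed, all lower. MTHFD1 was at 133 CPM against 276 and 267 (-1.19 ± 0.28, adjusted p = 0.000395), SHMT2 at 157 against 235 and 260 (-0.81 ± 0.27, adjusted p = 0.0143) and TYMS at 333 against 441 and 408 (-0.52 ± 0.19, adjusted p = 0.0284). Relative to the median of all genes these are -0.38, -0.00 and 0.29. SHMT2 and TYMS lost their calls with DESeq2 size factors or total count scaling, under which MTHFD1L and MTHFD2 passed as higher (0.69 and 0.54 with total counts). In the main fit none of the 9 passed in more than 1 of these 3 libraries. With DESeq2 size factors SHMT1 passed as higher with oligos too (1.01). MTHFD2 passed as lower with oligos and, under either of the 2 scalings, as higher with both additives. Their totals of 116742 to 184722 counts, against 1031889 or more in the other libraries of the experiment, go with every one of these differences, and the part of depth was not tested.

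In HEK293FT the custom oligos left all 9 genes near their undepleted level. PHGDH was at 1630 against 1621 CPM, PSAT1 at 520 against 493, SHMT2 at 471 against 488, MTHFD1 at 643 against 606 and TYMS at 167 against 168. The log2 ratios ran from -0.05 to 0.08, and all 9 exact 95% intervals for counting error included 0. With 1 library a side there is no test; 0 of 9 genes and 0% of 5225 genes with at least 100 counts on average passed a 2-fold difference.

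**Figure D4:**
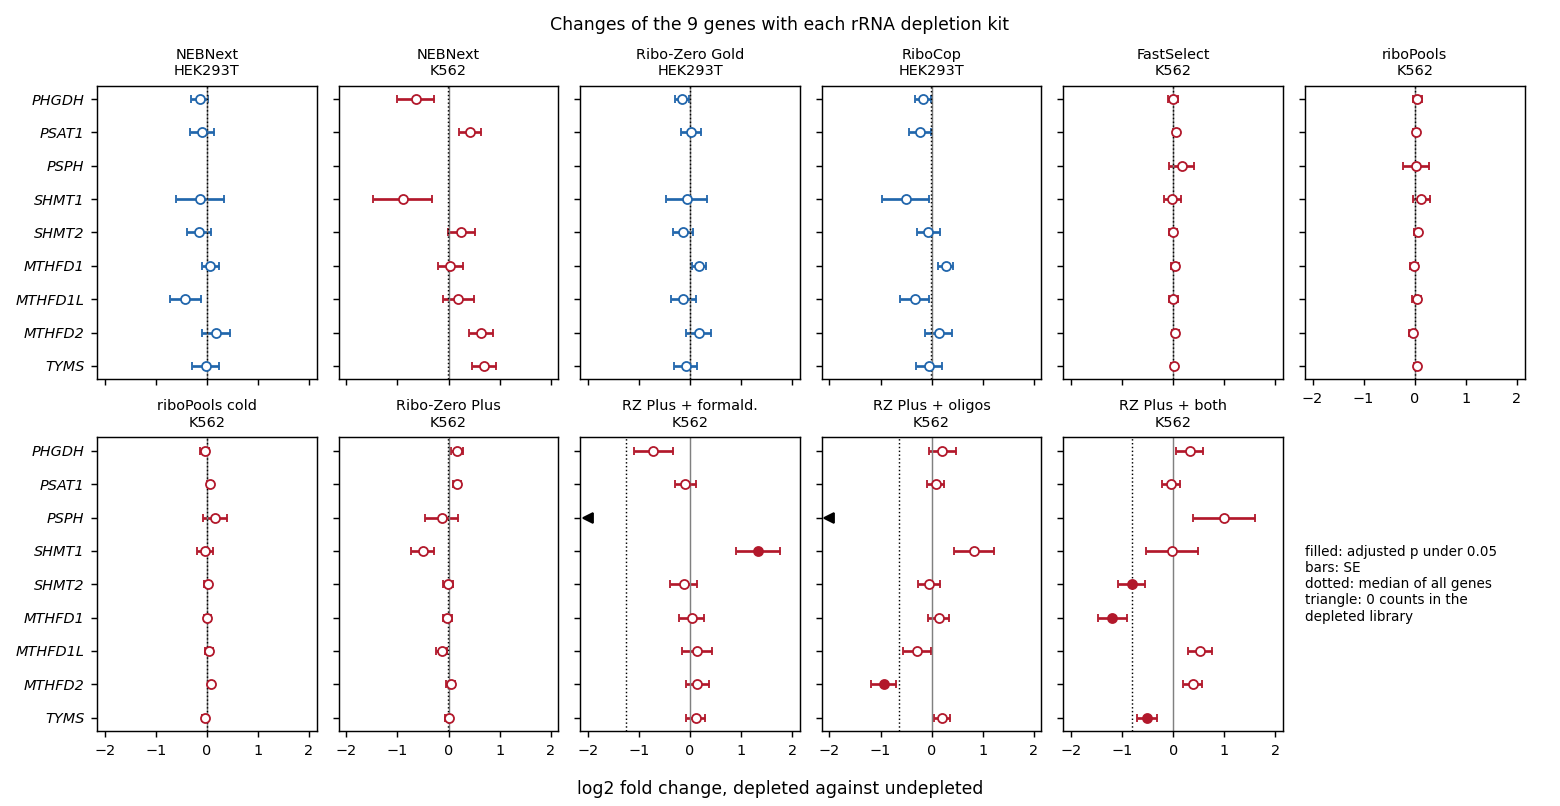
Log2 fold change against undepleted libraries (horizontal axis, with standard error) of the 9 genes for each kit; filled symbols passed an adjusted p of 0.05, dotted lines mark the median of all genes and triangles a depleted library with 0 counts. The 3 panels with filled symbols are the shallow Ribo-Zero Plus libraries, where the dotted line lies at -1.25, -0.64 and -0.81; the riboPools and FastSelect points lie between -0.04 and 0.17.

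Neighbouring pathways differed between K562 and HEK293T in both directions; list counts below leave out the 9 genes and stand against 18.5% higher and 16.9% lower over all genes. Among genes of serine and glycine handling 5 of 11 tested were higher in K562 and 1 lower (35.4% of all genes were called; median log2 fold change 0.86, against 0.02 over all genes). SLC1A5, a transporter of neutral amino acids that carries serine and glutamine, was at 703 and 668 CPM in K562, 458 and 443 in HEK293T and 390 in HEK293FT (0.86 ± 0.13). DLD, a subunit of the glycine cleavage system and of 2-oxoacid dehydrogenases, was at 450 and 447 against 283 and 222 (1.10 ± 0.17). GLDC, of the same cleavage system, was the 1 lower gene (-8.26 ± 1.06, mean of 8.4 counts). GCSH, also of that system, missed the threshold (-0.98 ± 0.48). These last 2 genes are named here after their values were seen. HEK293FT called 0 of these 11.

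Folate uptake and cycle had 2 of 13 higher and 3 lower (median -0.27), a share called near the 35.4% of all genes. Methionine synthase, MTR, was at 71.3 and 70.7 CPM in K562 against 158 and 228 in HEK293T (-1.22 ± 0.25), and the folate carrier SLC19A1 at 68.7 and 66.9 against 125 and 137 (-0.70 ± 0.29, adjusted p = 0.0432). Both were lower in both K562 libraries. In NEBNext libraries neither passed the test (-0.73, adjusted p = 0.0642 for MTR, and -0.48, adjusted p = 0.232 for SLC19A1). There 1 of 9 genes of this list was higher and 0 lower, against 22% and 21.6% of all genes. Of the genes that supply thymidylate and deoxynucleotides 3 of 12 were higher and 3 lower (median 0.13), against 18.5% and 16.9% of all genes. TK1, which salvages thymidine, and DUT, which makes the dUMP used by TYMS, were higher by 0.90 ± 0.22 and 0.87 ± 0.19. The reductase subunit RRM1 and the dCTP pyrophosphatase DCTPP1 were lower, by -0.50 ± 0.17 and -0.73 ± 0.22.

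De novo purine synthesis, which uses formyl groups from the same folate pool, had 2 of 12 higher and 4 lower (median -0.32), against 18.5% and 16.9% of all genes. GART, which takes up a formyl group, was at 803 and 796 CPM in K562 against 450 and 391 in HEK293T (1.19 ± 0.13), and GMPS was higher by 1.09 ± 0.16. PPAT, the committing enzyme, was at 65.2 and 47.5 against 192 and 169 CPM (-1.40 ± 0.27), and PFAS and PRPS1 were lower by -1.12 ± 0.23 and -1.01 ± 0.21. Of the methionine cycle and transsulfuration 6 of 7 were higher and 1 lower (median 0.96), against 18.5% and 16.9% of all genes; in NEBNext libraries it was 2 of 6 and 0 (median 0.54), against 22% and 21.6%. Higher in undepleted libraries were CBS (1.16 ± 0.26), AHCYL1 (1.25 ± 0.27) and MAT2A (0.45 ± 0.17). MAT2A, which makes S-adenosylmethionine, was at 1270 CPM in HEK293FT against 283 and 306 in HEK293T (2.24, adjusted p = 2.07e-54).

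ATF4 drives serine synthesis genes and many amino acid genes when amino acids run short. Of ATF4 and its known targets 6 of 14 were higher in K562 and 4 lower (median 0.62), against 18.5% and 16.9% of all genes. In HEK293FT 3 of 14 were higher than in HEK293T and none lower, against 2.75% and 1.31%. ATF4 itself, named here after its value was seen, was lower in K562 than in HEK293T (-1.78, adjusted p = 4.34e-05). Asparagine synthetase, ASNS, was at 646 and 700 CPM in K562, 142 and 143 in HEK293T and 586 in HEK293FT, a log2 difference from HEK293T of 2.49 ± 0.18 in K562 and 2.18 in HEK293FT (adjusted p = 1.6e-24). PCK2, the mitochondrial PEP carboxykinase, and PYCR1, which makes proline, were also higher in both lines, by 2.40 and 1.77 in K562 and by 2.56 and 1.09 in HEK293FT. ALDH18A1, an earlier enzyme of proline synthesis, was at 84.5 and 72.7 CPM in K562 against 275 and 248 (-1.46 ± 0.23), and XPOT, which exports tRNA, was lower by -0.60 ± 0.25.

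**Figure D5:**
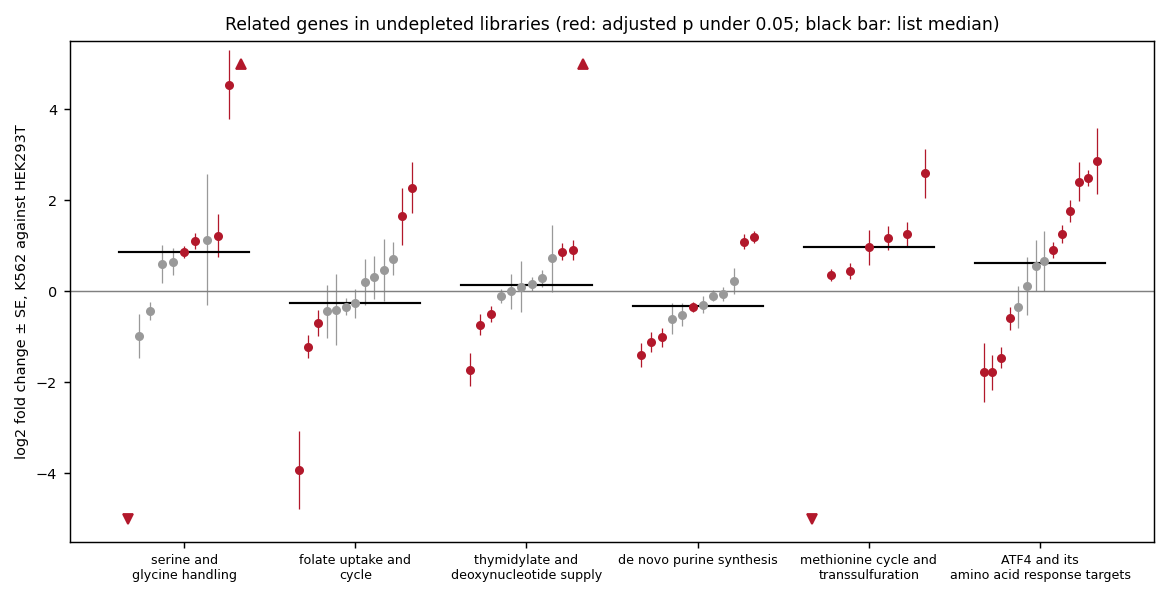
Log2 fold change with its standard error, K562 against HEK293T in undepleted libraries (vertical axis), for the tested genes of 6 related lists without the 9 genes; red passed an adjusted p of 0.05, black bars are list medians, and triangles at the edge stand for fitted values beyond 5 in size. List medians run from -0.32 for purine synthesis to 0.96 for the methionine cycle, and every list holds genes on both sides of 0.

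Genes whose level was most like a member's over the 18 groups were found by Pearson's r of log2(mean CPM + 10), with groups of a line sharing that line and no p given. For PHGDH these were UBAP2L (r = 0.975) and HSPA1B (0.965), which followed its order of lines with 503 and 2564 CPM in HEK293FT, 391 and 2001 in HEK293T, and 226 and 636 in K562. HSPA1B has a near-identical copy, HSPA1A, and its counts are uncertain. For TYMS they were PPIL2 (0.970) and RCSD1 (0.956), the latter at 58.8 CPM in undepleted K562 and 0 in both HEK lines. For MTHFD2 they were PSMG1 (0.909) and ANXA7 (0.908), each higher in K562 than in the HEK lines.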

How the data were processed

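Ribosome footprints were counted over coding sequences. The authors deposited raw counts per coding transcript, 1 table per experiment. Per the submitters' processing notes the tools included CASAVA 1.8 and STAR and the build was GRCh38; other settings are not given in the sources used here. The deposited tables of normalized values were not used. Tables were joined by transcript, and 97.5% of the transcripts matched GENCODE release 29, the source of coding lengths. CPM is a count over the library's total. Tests used edgeR 4.0.16 (R 4.3.3) on the counts: TMM scaling, filterByExpr, quasi-likelihood fit, Benjamini-Hochberg adjustment over all genes tested, threshold 0.05. Cell lines were fitted over the 5 undepleted libraries, HEK293T kits over 8, the K562 size experiment as depletion plus size, and K562 kits over 12 with 1 term per treatment. DESeq2 1.42.0, other scalings, filters, depths, a replicate block and left-out libraries were alternatives.

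On simulated counts the K562 and HEK293T test recovered 28.9% of 2-fold and 66.4% of 4-fold changes (9644 genes), the HEK293T NEBNext test 39.6% and 80.8% (4410) and the riboPools test 64.8% and 89.3% (10142). No label says that replicates came from separate cultures, so p-values measure the spread between these libraries, which may be technical. Replicate counts differed by more than sampling noise in 7 of 8 pairs; the RiboCop pair did not (chi-square p = 0.103 over 4378 genes), but its libraries have different totals and were kept as 2. An exact permutation test of 2 against 2 libraries cannot go below 0.333. Intervals and the limit of 3 counts cover counting error only. All 9 genes are named throughout; related genes are the up to 3 largest rises and falls per list among called genes averaging 50 counts or more. All members and lists were chosen with earlier results of these data known.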

Additional observations from a re-analysis of the deposited data

How the results depend on the processing

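Of 1173 alternative values for single genes, 1145 kept their side of the threshold, 19 lost and 9 gained a call, and 0 called values reversed; among the 1145, 110 uncalled values, at most 0.51 in size, changed sign. The number of the 9 genes called moved by over 1.5 times in 5 cases. Thinned to 120019 counts a library, an alternative chosen after seeing the data, HEK293FT against HEK293T called 1 gene in place of 3, PHGDH (PSAT1 0.83, SHMT2 0.90, no longer called). The NEBNext comparison of K562 with HEK293T called 5 and, with a library left out, 0 to 5. Ribo-Zero Plus with formaldehyde called 1 gene, and 1 to 2 with an undepleted library left out. In DESeq2, Ribo-Zero Plus with oligos called 0 in place of 2, and with both additives 1 in place of 3.

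Total count scaling moved the median of all genes from 0.02 to -0.24 for K562 against HEK293T, so 1219 genes were higher and 2134 lower in place of 1781 and 1629; the 5 calls stayed 5. For K562 against HEK293FT that median went to -0.13 and PSAT1 was then called lower (-0.27). The replicate block left 0 members called with NEBNext in HEK293T and changed no other count of members. Same-numbered libraries correlated by 0.0389 to 0.108 in HEK293T and -0.0418 to 0.00931 in the K562 kit experiment, so the numbers were not taken as pairs. The depletion plus size fit of the K562 size experiment could not be fitted with a library left out. DESeq2 gave no adjusted p for 11 values. Depth limits PSPH and SHMT1 in HEK293T most. Counts over the whole table come from separate fits and need not hold the same genes. The number of genes tested differs too, so a lower count need not be a lower share. For HEK293FT against HEK293T, DESeq2 gave an adjusted p to 3703 genes, and edgeR to 9644. With NEBNext these numbers were 1196 and 4410 in HEK293T, and 553 and 3715 in K562. For the difference of NEBNext effects they were 707 and 5365. DESeq2 called 2948 in place of 5029 (K562 against HEK293FT), 223 against 391 (HEK293FT against HEK293T), 818 against 1848 (NEBNext across lines), 75 against 143 and 26 against 101 (NEBNext in HEK293T and K562), 1 against 3 (Ribo-Zero Gold), 1 against 2 (FastSelect), 0 against 9 and 0 against 24 (riboPools, cold riboPools), 17 against 41 (difference of NEBNext effects) and 33 against 2065, 870 against 2604, 910 against 2978 and 1136 against 3052 (Ribo-Zero Plus alone, with formaldehyde, oligos and both). Additive terms gave 231 against 2065. Thinning gave 1231 against 3410, 903 against 5029 and 84 against 391 between lines, with 3867 genes tested in place of 9644. Total count scaling gave 60 against 101 with NEBNext in K562, with 3715 tested in each.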
